A study of Mus musculus with 21 samples.

Results

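The DNA copy number of 7 genes of the Wnt and β-catenin pathway (Ctnnb1, Apc, Axin1, Axin2, Lgr5, Tbx3 and Glul) was examined in 21 mouse liver tumours by array comparative genomic hybridization. The 7 genes were chosen by name, not by a measured value, but with earlier results of these data known. A gene locus was the stretch that reached 500 kb to either side of the probes carrying the gene's name, and its level was the mean log2 ratio of all probes inside it. All 7 genes had such probes, and they stood among 23481 gene loci tested across chromosomes 1 to 19 and X. The distance of a locus was its level minus the mean of its own chromosome in the same tumour.

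All were male C57BL/6 mice kept on CD-HFD, a high-fat diet deficient in choline that causes NASH, over 12 months. In 1 group they were also given anti-PD1, an antibody against the T cell checkpoint receptor PD1, for 8 weeks (12 tumours of 7 mice), and the other group received CD-HFD alone (9 tumours of 7 mice). Genomic DNA from paraffin-embedded sections was labelled with Cy3 and hybridized against a Cy5-labelled pool that the labels call liver tails, without a dye swap. The leading number of a sample name was read as the mouse, so that 3 anti-PD1 mice and 2 CD-HFD mice had several lesions, whereas the series text counts each tumour as a mouse. A log2 ratio of 0 was the median of an array, so that a positive value meant a higher ratio than at the median probe of that tumour. Unless stated, ratios were not corrected for the base composition of the probes, so their sign alone does not show a gain or a loss. In bulk tumour DNA, a change in fewer cells and a smaller change in every cell cannot be told apart, and DNA gives no readout of cell type markers.

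β-Catenin, the product of Ctnnb1, carries the canonical Wnt signal to the nucleus. Without Wnt ligands it is marked for degradation by a destruction complex in which Apc and the Axin proteins are scaffolds. In the liver, active β-catenin keeps the gene programme of hepatocytes around the central vein, of which glutamine synthetase (Glul), the transcription factor Tbx3 and the R-spondin receptor Lgr5 are known members, and mutations that stabilize β-catenin are frequent in liver cancer.

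The named probes began and ended at chr9:120848314-120869389 for Ctnnb1, chr17:26279524-26331908 for Axin1, chr11:108787453-108811041 for Axin2, chr10:114903593-115015877 for Lgr5, chr5:120123533-120127564 for Tbx3 and chr1:155752713-155752770 for Glul (mm9). A value in the text averages many probes that each read one short stretch of DNA. The 40 probes named for the 7 genes each matched the GRCm38 genome at 1 place, and 12 of them were on both array designs used. Most lay in introns (8 of 15 for Apc, 7 of 9 for Axin1, 5 of 6 for Lgr5, 2 of 4 for Ctnnb1), 6 of those for Apc in coding exons, and 2 of 3 for Axin2 in UTRs. The probes are shown here because they mark what was measured inside the genes, as opposed to the flanking DNA. Capitals mark bases inside a coding exon of the GENCODE M21 annotation on GRCm38, and all sequences run along the forward strand. The positions are those of the files, in mm9. Ctnnb1 probe 1 lay at chr9:120848314-120848373, probe 2 at chr9:120853880-120853939 and probe 3 at chr9:120860148-120860206. For Axin1, Lgr5, Tbx3 and Glul the probe with the lowest start among those on both designs is shown, of which Axin1 and Lgr5 had 2 each. Probes in UTRs are not shown, among them a further Ctnnb1 probe and the Axin2 probe on both designs. No Apc probe is shown. That of Axin1 lay at chr17:26290710-26290769, that of Lgr5 at chr10:114903593-114903652, that of Tbx3 at chr5:120123533-120123592 and that of Glul at chr1:155752713-155752770.
Ctnnb1 probe 1, intron: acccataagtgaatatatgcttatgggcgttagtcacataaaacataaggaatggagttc
Ctnnb1 probe 2, intron: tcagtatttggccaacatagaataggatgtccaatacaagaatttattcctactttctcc
Ctnnb1 probe 3, coding exon: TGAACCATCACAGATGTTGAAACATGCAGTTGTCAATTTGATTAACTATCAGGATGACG
Axin1 probe, intron: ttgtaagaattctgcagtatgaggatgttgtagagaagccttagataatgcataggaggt
Lgr5 probe, coding exon with flanking intron: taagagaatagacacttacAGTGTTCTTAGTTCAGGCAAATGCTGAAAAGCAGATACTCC
Tbx3 probe, intron: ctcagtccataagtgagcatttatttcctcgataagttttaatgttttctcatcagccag
Glul probe, intron: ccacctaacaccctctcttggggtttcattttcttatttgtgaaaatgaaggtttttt
At Ctnnb1 probe 3, in the coding sequence, the mean log2 ratio was −0.20 ± 0.11 (SD, n = 7 mice) in anti-PD1 tumours and −0.17 ± 0.24 (SD, n = 7) in CD-HFD tumours. At Ctnnb1 probe 2, carried by 1 design, it was 0.60 ± 0.24 (SD, n = 3) and 0.96 ± 0.26 (SD, n = 3). These are levels of single probes, and no test was made on them.

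The tumours lay on 3 slides. Slide 1 carried 1 array design and held 4 tumours of each group, slide 2 carried a second design with 4 of each, and slide 3 carried that second design with 4 anti-PD1 tumours and 1 CD-HFD tumour. Of the tumour spots, 65.0% or more were well above background on each array, with a median of 96.5%. The lowest shares were those of 608 L1 (65.0%) and 1770 L1 (82.1%), 2 tumours named below for single calls and extreme values. The noise between neighbouring probes was 0.41 to 0.68 on the log2 scale. A locus of the 7 genes held 12 to 40 probes on the first design and 12 to 58 on the second, fewest at Tbx3.

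The levels of the 7 genes overlapped between the groups, and single tumours carried large changes. Chromosome-wide loss took in Ctnnb1 in 2 lesions of mouse 608. A gain of chromosome 18, whose mean was 0.48, took in Apc in mouse 1109, and gains on chromosome 1 took in Glul in 5 tumours. None of the 7 loci, and none of the 23481 gene loci, passed the test between tumours with and without anti-PD1. The share of all gene loci called was thus 0% in limma for the level (adjusted p under 0.05), with 152 loci at an unadjusted p under 0.05, none of them among the 7.

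Ctnnb1 encodes the signal carrier of the pathway. Its level was lowest at −0.43, median −0.14 and highest at 0.026 in the 12 anti-PD1 tumours, and −0.24, −0.095 and 0.22 in the 9 CD-HFD tumours. The groups overlapped, the 2 lowest values being those of lesions L6 and L1 of mouse 608 (−0.43 and −0.31) and the highest that of CD-HFD tumour 1770 L1. Averaged per mouse, the level was −0.13 ± 0.11 (SD, n = 7) with anti-PD1 and −0.068 ± 0.093 (SD, n = 7) without. The fitted difference, anti-PD1 minus CD-HFD, was −0.081 (SE 0.061, 95% interval −0.21 to 0.044), and limma gave an adjusted p of 0.99985. Leaving out mouse 608 changed it to −0.017, so that this mouse carried most of the difference.

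Apc is the scaffold of the destruction complex that restrains β-catenin. Its level ran from −0.051 (median 0.097) to 0.50 in anti-PD1 tumours and from −0.062 (median 0.071) to 0.19 in CD-HFD tumours. In 18 of 21 tumours the level lay above 0, and the tumour of anti-PD1 mouse 1109 stood apart at 0.50, with the mean of chromosome 18 at 0.48 in that tumour. The difference between groups was 0.051 (SE 0.054, 95% interval −0.060 to 0.16, adjusted p in limma 0.99985), 0.019 without mouse 1109 and 0.020 without CD-HFD mouse 2064.

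Axin1 and Axin2 are the scaffolds on which the complex assembles, and Axin2 is also a widely used target gene of the pathway. At Axin1 the level was lowest at −0.40, median −0.27 and highest at 0.088 with anti-PD1, against −0.35, −0.14 and 0.093 with CD-HFD alone. It was below 0 in 18 of 21 tumours, in both groups. At Axin2 the levels were −0.32, −0.021 and 0.32 with anti-PD1, against −0.13, −0.036 and 0.088 with CD-HFD alone. The lowest and the highest value at Axin2 both came from anti-PD1 mice (608 L6 and 612 L5), so that all CD-HFD tumours lay inside the anti-PD1 range. The differences were −0.052 (SE 0.067, interval −0.19 to 0.085) at Axin1 and 0.0021 (SE 0.054, interval −0.11 to 0.11) at Axin2, with an adjusted p of 0.99985 in limma for each. At Axin1 it was −0.030 without CD-HFD mouse 2088 and −0.032 without anti-PD1 mouse 2094.

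Lgr5 is a receptor for R-spondins, which strengthen the Wnt signal. Its level lay between −0.10 and 0.52 (median 0.33) in anti-PD1 tumours and between 0.0085 and 0.63 (median 0.26) in CD-HFD tumours. Its level was above 0 in 20 of 21 tumours, the exception being 612 L2. The difference between groups was 0.018 (SE 0.073, interval −0.13 to 0.17, adjusted p in limma 0.99985).

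Tbx3 and Glul are targets that active β-catenin switches on in hepatocytes. At Tbx3 the level was −0.33, median −0.20 and highest 0.056 with anti-PD1, against −0.44, −0.057 and 0.33 with CD-HFD alone, the widest range of the 7 loci in that group. Its difference of −0.098 (SE 0.072, interval −0.24 to 0.049, adjusted p in limma 0.99985) was the largest of the 7 in size. Without CD-HFD mouse 2064, whose lesion L1 held the highest value, it was −0.026. At Glul the level was −0.16, median −0.038 and highest 0.32 with anti-PD1, against −0.17, 0.027 and 0.28 with CD-HFD alone. The difference at Glul was −0.038 (SE 0.067, interval −0.17 to 0.098, adjusted p in limma 0.99985), and it was 0.16 within slide 1 and −0.18 within slide 2.

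**Figure D1:**
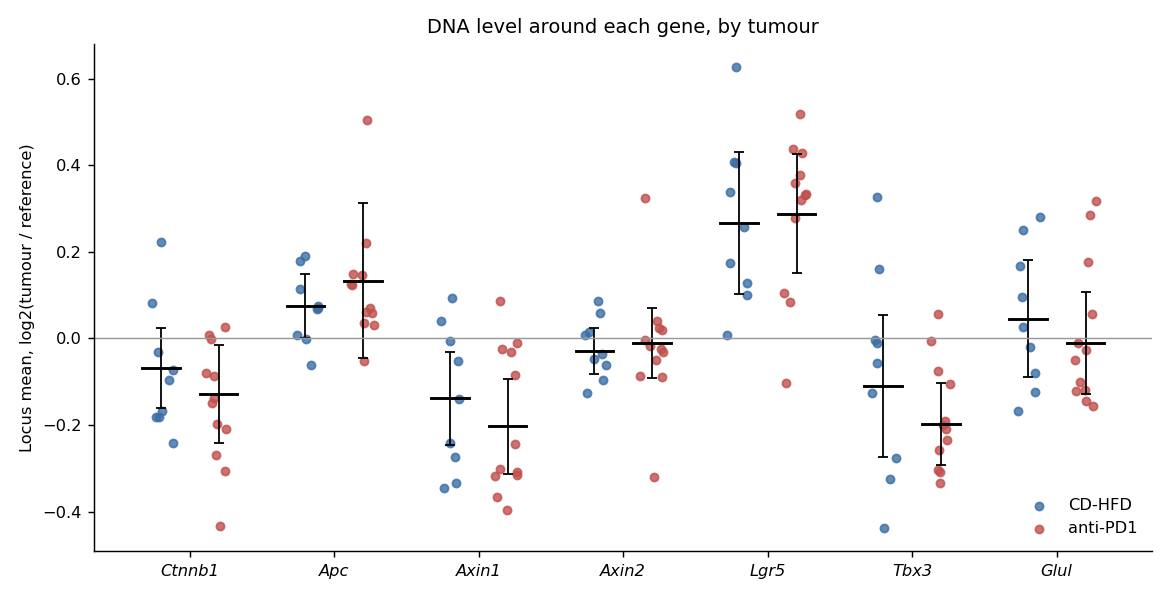
The locus mean of log2(tumour over reference) for each tumour (points) at the 7 genes, with the mean of the mouse means (bar) and their SD (whiskers, 7 mice per group). The groups overlap at every gene, and Apc has 1 tumour at 0.50.

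The median difference over the 7 loci was −0.038, beside −0.011 over all gene loci, and 4 of the 7 differences were below 0. In absolute size the median was 0.051 beside 0.033. Within slide 1 and within slide 2, taken as means of 3 mice against 3, no locus of the 7 was called for the level. With lesions in place of mouse means and the mouse as a random block, slide 1 alone gave 2 calls among the 7, Ctnnb1 at −0.29 (adjusted p = 0.018 in limma) and Glul at 0.21 (adjusted p = 0.033), from a fit that called 3751 of 23481 gene loci with an estimated correlation within mice of −0.66. A correlation below 0 within mice narrows the standard errors, so that these p-values are likely too small. By mouse means, slide 1 called 8 gene loci for the level. The difference at Ctnnb1 by mouse means was −0.18 on slide 1 and −0.018 on slide 2, and at Tbx3 −0.0078 and −0.18. All 7 intervals of the difference included 0, and the number of mice limits how small a difference could be detected.

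The distance of a locus from its chromosome, which leaves out gains and losses of a whole chromosome, was compared in the same way. The share of gene loci called was 0% (limma, 300 loci at an unadjusted p under 0.05), with none of the 7 among them. Tbx3 was nearest, with a distance 0.094 lower in anti-PD1 tumours on the fit (difference −0.094, SE 0.052, unadjusted p = 0.084 and adjusted p = 0.999884 in limma). Its distance was below 0 in 12 of 12 anti-PD1 tumours and in 7 of 9 CD-HFD tumours. The mean of the mouse means was −0.19 ± 0.044 (SD, n = 7) against −0.11 ± 0.13 (SD, n = 7), and the groups overlapped. Lesion 2064 L1 had the highest distance at 0.24, and without CD-HFD mouse 2064 the difference was −0.041. Within slides it was −0.019 on slide 1, −0.16 on slide 2 and 0.069 on slide 3, where 1 CD-HFD tumour stood against 4. At Axin2, 16 of 21 tumours lay above their chromosome, with 612 L5 at 0.29 farthest. The other 5 differences of distance lay between −0.031 and 0.039.

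Averaged over both groups, 6 of the 7 loci stood off their own chromosome, all but Apc, but so did 80.4% of all gene loci in limma, so that being called is no mark of these genes. Lgr5 stood above at 0.23 (SE 0.030, adjusted p = 2.1e-07) and Axin2 above at 0.044 (SE 0.019, adjusted p = 0.038), beside 33.3% of gene loci called above. Axin1 stood below at −0.15 (SE 0.021, adjusted p = 9.4e-07), Tbx3 at −0.14 (SE 0.026, adjusted p = 4.0e-05), Glul at −0.11 (SE 0.022, adjusted p = 4.1e-05) and Ctnnb1 at −0.065 (SE 0.020, adjusted p = 0.0046), beside 47.1% of gene loci called below. Apc lay at 0.0033 (SE 0.012, adjusted p = 0.81). The call at Axin2 was lost on leaving out 9 of the 14 mice in turn (0.035 to 0.058), and with the loess ratios of the authors Axin2 lay at −0.12.

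The sign of these distances changed at 4 of the 7 loci when base composition was corrected for. After correction for the GC content of the probes and of their surroundings, Ctnnb1 lay at 0.042 (SE 0.014, adjusted p = 0.010 in limma), Axin1 at 0.057 (SE 0.020, adjusted p = 0.015) and Tbx3 at 0.0066 (SE 0.021, adjusted p = 0.79), all below 0 before. Axin2 turned the other way, to −0.031 (SE 0.016, adjusted p = 0.082). Lgr5 kept 0.17 (SE 0.028, adjusted p = 5.4e-06) and Glul −0.14 (SE 0.017, adjusted p = 2.4e-07). From the probes on both designs alone, however, Glul lay at 0.050 (SE 0.029, adjusted p = 0.12), Ctnnb1 at 0.053 (SE 0.023, adjusted p = 0.034) and Axin2 at −0.19 (SE 0.025, adjusted p = 1.1e-07). After correction for base composition 68.1% of all gene loci were called. The corrected distances also differed between array designs. At Axin1 the median was −0.072 on slide 1 (−0.15 to 0.090) and 0.12 on slides 2 and 3 (0.048 to 0.17). At Lgr5 it was 0.016 (−0.027 to 0.094) and 0.26 (0.21 to 0.36), without overlap. At Apc it was −0.029 and 0.042, with overlap. Mean GC content of the probes ran from 35.6% at Glul to 38.3% at Tbx3 on the first design and from 35.7% at Axin2 to 39.1% at Axin1 on the second.

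**Figure D2:**
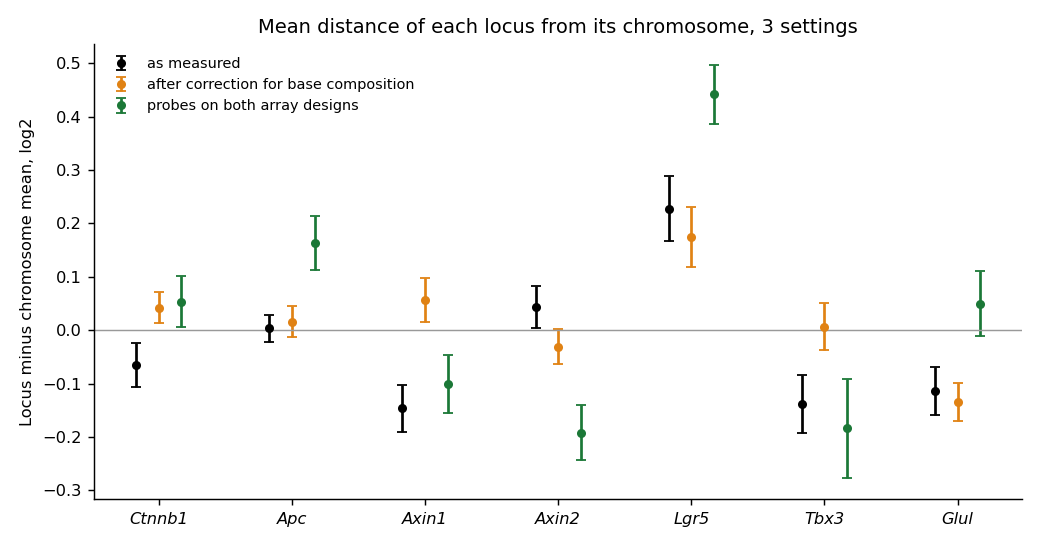
Mean distance of each locus from its chromosome (log2, mean of the 2 groups with 95% interval from limma, 21 tumours) as measured, after correction for base composition, and from the probes on both designs alone. Ctnnb1, Axin1, Axin2 and Tbx3 change sign after the correction, Glul changes sign with the probes on both designs, and Lgr5 stays above 0 in all 3 settings.

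The distance at Lgr5 differed between array designs, and its ranges overlapped at the probes that both designs carry. On slide 1 it was lowest at 0.024, median 0.055 and highest at 0.15 in 8 tumours, and on slides 2 and 3 it was 0.24, 0.34 and 0.45 in 13 tumours, without overlap. Distances of 10.5% of all gene loci showed such a separation, and Lgr5 was the only one of the 7 that did. Within mouse 608, lesions L1 and L6 on slide 1 had 0.024 and 0.043, and lesion L3 on slide 3 had 0.34. Over the 8 probes at Lgr5 shared by the designs, the distance was 0.25, 0.45 and 0.55 on slide 1 and 0.22, 0.44 and 0.73 on slides 2 and 3. The authors' loess-normalized ratios placed Lgr5 at −0.044 (SE 0.022, adjusted p = 0.074 in limma), on the other side of its chromosome. In 5 of 21 tumours, from 3 anti-PD1 mice (3 of them lesions of mouse 2094) and all on the second design, the distance of Lgr5 ranked above the central 95% of that tumour's gene loci, while the highest rank in a CD-HFD tumour was 97.2%. No other locus of the 7 lay outside the central 95% in any tumour, so that 5 of 147 pairs of a gene and a tumour did (3.40%), where the limits leave out 5% of all gene loci. Slide 1 and the first design cannot be told apart.

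When each chromosome was split into segments of even level, 41 of 147 pairs of a gene and a tumour lay in a segment called altered, whose mean was 0.2 or more away from 0, that is 27.9%, beside 24.0% of all pairs of a gene locus and a tumour. The 11 gains made up 7.48% (8.79% over all gene loci) and the 30 losses 20.4% (15.2% over all gene loci). These shares were near those of the genome at large and were not tested. After correction for base composition 19 of the 41 calls were left and 0 new ones were added, which made 12.9% beside 10.7% of all pairs. Of the 41 segments, 4 spanned a whole chromosome. A chromosome with a break inside was not counted, even where its mean was near that of the segment. The mean of chromosome 1 was 0.44 in 2088 L1, 0.35 in 608 L6, 0.24 in 612 L2 and 0.18 in 1770 L4. That of chromosome 10 was 0.39 in 2064 L1, 0.31 in 608 L6 and 0.072 in 2094 L1.

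Ctnnb1 was lost in 5 tumours and gained in 0. In 608 L1 and 608 L6 the segment was the whole of chromosome 9 (2767 and 2768 probes) with means of −0.38 and −0.38, and −0.39 and −0.38 after correction for base composition. In 608 L3, 1770 L4 and 2094 L1 the segment covered 17.8 to 21.6 Mb with means of −0.28, −0.22 and −0.21, and none of these 3 reached −0.2 after the correction (−0.13, −0.10 and −0.16). Lesion L3 of mouse 608 thus lacked the loss of the whole chromosome, whose mean was −0.099 in it, and it was hybridized to the other design.

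Apc was gained in 2 tumours and lost in 0. In 1109 the segment of 57.5 Mb had a mean of 0.50, and 0.42 after the correction, and the whole chromosome had a mean of 0.48 before it. In 608 L6 all of chromosome 18 had a mean of 0.20, and 0.19 after the correction.

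Axin1 had the most calls, all of them losses, in 11 tumours of 10 mice. The segments spanned 8.05 to 13.4 Mb with means of −0.36 to −0.24. After the correction 1 of the 11 was left, in 1770 L4 at −0.23, and the other corrected means lay between −0.088 and −0.00072. Axin2 lay in a segment called lost in 4 tumours (15.2 to 81.5 Mb). It was gained in 612 L5, where a segment of 6.41 Mb and 161 probes had a mean of 0.37, and 0.22 after the correction. Of the 4 losses 1 was left after it, in 608 L6 at −0.22. Those in 608 L3, 1770 L4 and 2094 L3 came to −0.12, −0.087 and −0.068. Before the correction their segment means were −0.29, −0.24 and −0.21, but the Axin2 locus itself had levels of −0.050, −0.095 and −0.032. In each of these tumours the locus lay above the mean of its chromosome before the correction. The gained segment was the shortest of the 41.

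Lgr5 lay in gained segments of 43.3 to 48.8 Mb in 3 tumours, at 0.43 in 2064 L1, 0.33 in 608 L6 and 0.20 in 2094 L1, and the first 2 held after the correction (0.37 and 0.32). Tbx3 was lost in 9 tumours of 7 mice and gained in 0. Its segments spanned 11.1 to 43.6 Mb, and 6 of the 9 held after the correction, the strongest in 822 at −0.30. The lowest mean before it was −0.48 in 1770 L4, over 11.1 Mb.

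Glul was gained in 5 tumours of 5 mice, 2 with anti-PD1 and 3 without, and lost in 1. In 2064 L1 the whole of chromosome 1 had a mean of 0.46, and in 2088 L1, 608 L6, 1770 L4 and 612 L2 segments of 46.2 to 127 Mb had means of 0.43, 0.33, 0.21 and 0.21. In 1770 L1 a segment of 50.6 Mb around Glul had a mean of −0.22, so that the 2 lesions of CD-HFD mouse 1770 carried opposite calls at this gene. All but the gain in 1770 L4 held after the correction.

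**Figure D3:**
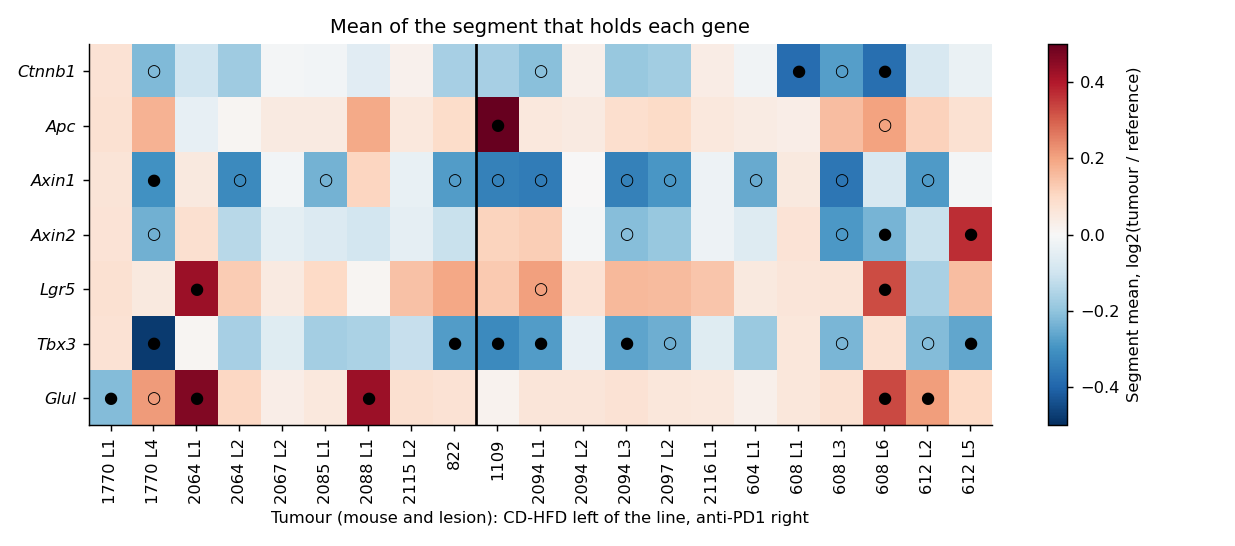
Mean log2(tumour over reference) of the segment that holds each gene (rows) in each tumour (columns, CD-HFD left of the line and anti-PD1 right). Circles mark absolute means of at least 0.2, filled where the call is left after correction for base composition, which holds for 19 of the 41.

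**Figure D4:**
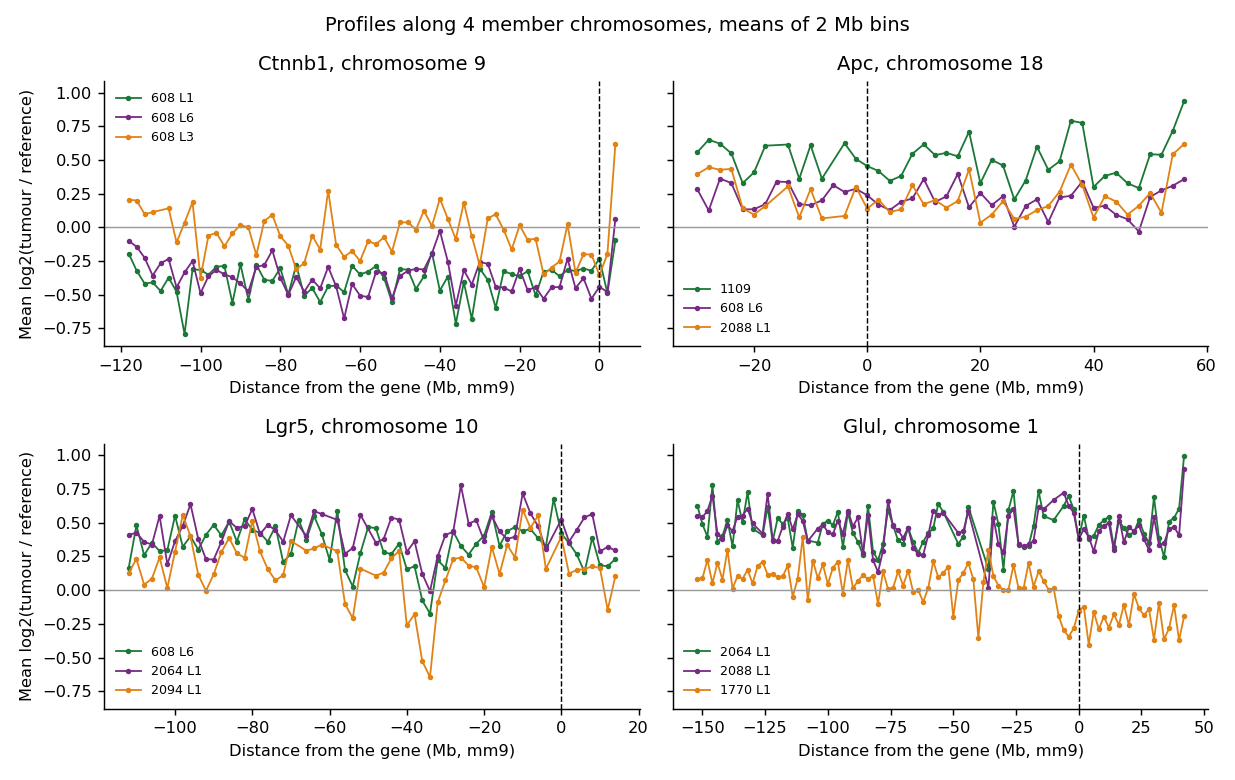
Mean log2(tumour over reference) in 2 Mb bins against the distance from the gene in Mb along the chromosomes of Ctnnb1, Apc, Lgr5 and Glul, for 3 tumours each. In 608 L1 and 608 L6 all bins but 1 of chromosome 9 lie below 0, in 1109 the whole of chromosome 18 above 0, and in 1770 L1 the level falls to the segment mean of −0.22 near Glul.

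The genes called per tumour are given beside the share of all gene loci altered in it. In 608 L6 and 1770 L4, 5 of the 7 genes lay in altered segments, beside 52.4% and 40.2% of all their gene loci. In 4 tumours (2067 L2, 2116 L1, 2115 L2 and 2094 L2) none did, beside 0.0213 to 2.48% of all gene loci. Tumours 822 and 2064 L1 had 2 of the 7 genes each in altered segments, beside 42.3% and 38.3% of their gene loci. These shares are before correction for base composition. After it, 44.2% of the gene loci were altered in 608 L6, 25.0% in 1770 L4, 5.53% in 822 and 36.8% in 2064 L1. In 608 L6 the calls were losses at Ctnnb1 and Axin2 and gains at Apc, Lgr5 and Glul. In 1770 L4 they were losses at Ctnnb1, Axin1, Axin2 and Tbx3 and a gain at Glul. After the correction, Ctnnb1 (−0.10), Axin2 (−0.087) and Glul (0.18) in 1770 L4 no longer reached 0.2 in size. Nor did Apc (0.19) in 608 L6.

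Lesions of one mouse were also compared with each other. Of 9 pairs of lesions from one mouse, 5 lay across slides and 3 of these across designs. Over the 9 pairs, the median absolute difference in level was 0.31 at Axin1, 0.27 at Glul, 0.23 at Tbx3, 0.19 at Lgr5, 0.13 at Ctnnb1, 0.12 at Axin2 and 0.052 at Apc. Over 93 pairs of lesions from different mice of the same group it was 0.18, 0.15, 0.16, 0.19, 0.15, 0.070 and 0.098, in the same order. The largest gap within a mouse was 0.60 at Tbx3, between 1770 L1 (0.16) and 1770 L4 (−0.44). By these medians of uncorrected levels, the lesions of one mouse were nearer to each other than those of different mice at Apc and Ctnnb1. At Axin1, Axin2, Tbx3 and Glul they were farther apart. Pairs share lesions and slides, and these differences were not tested. Some pairs held 608 L1 or 1770 L1, the tumours with the lowest shares of spots well above background. Whether correction for base composition changes the medians was not tested. At Axin1, lesions L1, L3 and L2 of mouse 2094 had levels of −0.37, −0.31 and −0.031, but corrected distances of 0.11, 0.13 and 0.10. Lesions L1 and L4 of mouse 1770 had levels of 0.093 and −0.35, and corrected distances of 0.090 and −0.15.

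Over the means of the 14 mice, the level varied most at Lgr5 (SD 0.15), Tbx3 (0.14) and Apc (0.13) and least at Axin2 (0.067), beside a median SD of 0.10 over all gene loci. The locus on another chromosome whose levels were most alike over these 14 means was Smarca2 for Lgr5 (Pearson r = 0.96) and Pttg1ip for Tbx3 (r = 0.95). It was the transcript ENSMUST00000142133 for Glul (r = 0.91), Snrnp70 for Axin1 (r = 0.89), Adi1 for Ctnnb1 (r = 0.88), 1700025K24RIK for Apc (r = 0.87) and Cdv3 for Axin2 (r = 0.74). Each was the highest over all loci on other chromosomes, and the mice share array designs, so these values are descriptions.

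Of 89 other genes of the pathway, 85 had a tested locus (Wnt11, Fzd1, Gsk3a and Sp5 had no probe carrying their name). None of the 85 was called for the level between groups, and the differences ran from −0.11 to 0.11 with 56 of 85 below 0, beside 13824 of all 23481 gene loci. The 3 widest were Tnks, a tankyrase that marks Axin for degradation, at 0.11 (SE 0.063), Lgr6, a receptor for R-spondins, at −0.11 (SE 0.072), and the ligand Wnt5a at 0.11 (SE 0.052), each with an adjusted p of 0.99985 in limma. Wnt5a was also the sole one with an unadjusted p under 0.05 for the difference of distance, at 0.096 (SE 0.032, unadjusted p = 0.0057, adjusted p = 0.999884 in limma).

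**Figure D5:**
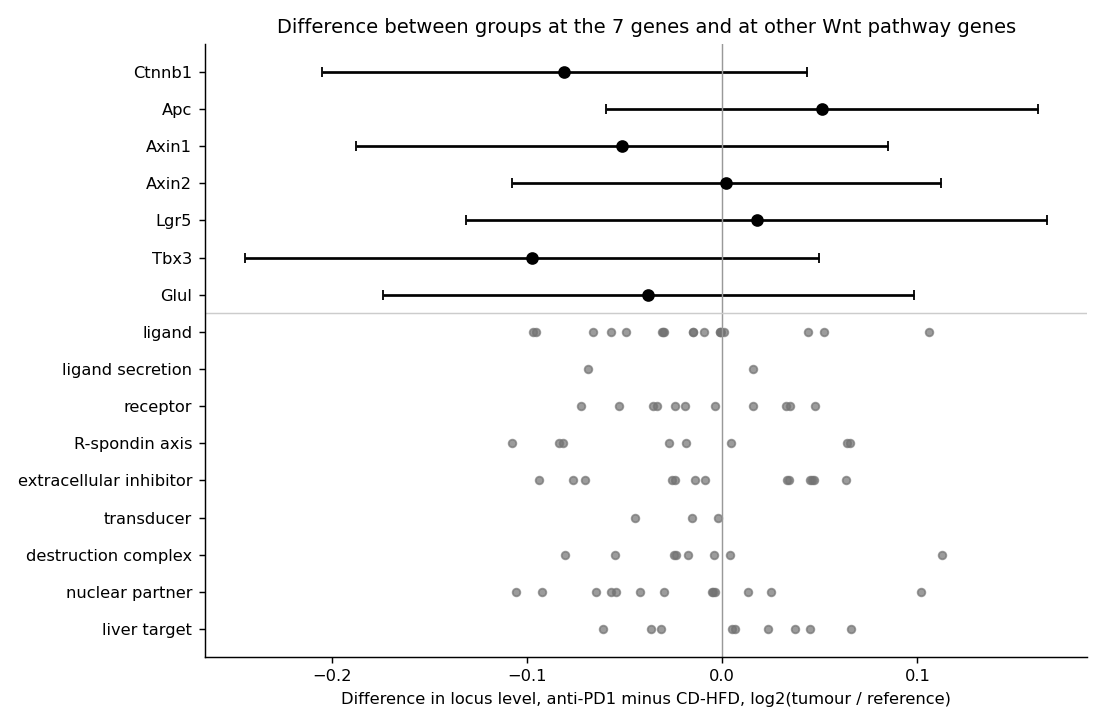
Difference in locus level between groups (anti-PD1 minus CD-HFD, log2) for the 7 genes with 95% intervals from limma (black) and, as grey points without error bars, for 85 other pathway genes by role. All 7 intervals include 0, and the other genes lie between −0.11 and 0.11.

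For the mean distance, 21 of the 85 lay above their chromosome and 44 below, beside 33.3% and 47.1% of all gene loci. Among 18 ligands 3 lay above and 11 below, among 11 receptors 4 and 6, among 8 genes of the R-spondin axis 3 and 4, among 13 extracellular inhibitors 4 and 3, among 2 genes of ligand secretion 1 and 1, among 3 transducers 0 and 3, among 8 further genes of the destruction complex 3 and 3, among 13 nuclear partners 3 and 6, and among 9 liver targets 0 and 7. The farthest were Apc2, a relative of Apc, at −0.52 (SE 0.039) and the corepressors Tle2 at −0.50 (SE 0.041) and Tle3 at −0.32 (SE 0.016). After correction for base composition they lay at −0.18, −0.059 and −0.24. Also among the 5 with the smallest p were the liver target Lect2 at −0.30 (SE 0.021) and the tankyrase Tnks2 at 0.21 (SE 0.017), at −0.17 and 0.14 after the correction. Some of these loci share probes, as Wnt8a does with Apc.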

How the data were processed

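Genomic DNA of 21 liver tumours was measured on 2-colour Agilent arrays, with the tumour in Cy3 and the reference pool in Cy5. Per the file headers, Feature Extraction subtracted background and normalized dyes linearly, and the deposited values are processed intensity values with probe positions in mm9. Loess-normalized log2 ratios that the authors made for 11526 probes carried by both designs served as an alternative. Control spots and spots marked as outliers were left out, and log2(green over red) was centred on each array's median. Gene loci with at least 5 probes in each design were tested with limma 3.58.1 (R 4.3.3), the mouse being a random block (duplicateCorrelation, statmod 1.5.0), with Benjamini-Hochberg adjustment over 23481 loci and a threshold of 0.05. Where nothing but the sample names separates lesions of a mouse, p-values measure the spread between these samples. The probe GC content and that of probes within 250 kb entered the correction for base composition as linear and quadratic terms. Segments came from least-squares partitioning in which each break cost 3 noise variances multiplied by the logarithm of the probe number and a segment held no fewer than 10 probes. Python 3.11.15, numpy 2.4.6, pandas 2.3.3, numba 0.67.0 and matplotlib 3.10.9 were used. The fits were tested on simulated data with independent loci and a positive correlation within mice, a setting that differs from these data.

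The 7 genes and the list of other pathway genes were chosen with earlier results of these data known. Other pathway genes were named if they passed a threshold (up to 5 per fit by smallest p) or were among the 3 largest group differences or the 3 largest mean distances. Wnt5a in the difference of distance was named after its values were seen, as were single tumours. The alternatives were normexp with an offset of 50, the loess ratios, probes well above background, every tumour as independent, the slide as a block, windows of 250 kb and 1 Mb, medians, probes on both designs, the correction for base composition and each mouse left out. The number of arrays limits the precision.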

Additional observations from a re-analysis of the deposited data

Results flagged for a closer look

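Of 28 sets of 7 mouse values (level and distance of each gene in each group), 1 held a mouse far from the others, where chance gives about 1 in 20, or 1.4 sets. The level of Apc in the tumour of anti-PD1 mouse 1109 was 0.50 on the log2 scale, and the other 6 anti-PD1 mice lay between −0.051 and 0.17. The distance of Apc from chromosome 18 in that tumour was 0.025, so that the level was that of the chromosome. Without this mouse the difference between groups at Apc was 0.019.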

How the results depend on the processing

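No paired analysis was possible because no mouse gave tumours to both groups, so that no fit with a replicate block could pair them. The within-slide fits were chosen after seeing the data. Leaving out each mouse left the count of gene loci off their chromosome at 18312 to 18953, and 0 loci were called between groups for the level and for the distance without any mouse. By mouse means, slide 1 called 8 loci for the level and 27 for the distance, none among the 7 genes. By lesions, slide 1 called 3751 and 5948, with estimated correlations of −0.66 and −0.88, and among the 7 Axin2 (distance −0.080, adjusted p = 0.023 in limma) and Glul (distance 0.12, adjusted p = 0.0093). Correlations below 0 narrow the standard errors, so that the p-values by lesions are likely too small. Probes on both designs called 2 loci for the distance between groups. Of the pairs of gene and tumour, 72 were altered at a threshold of 0.1, 17 at 0.3, 19 after correction for base composition and 27 with normexp. The cause of these changes was not tested.

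The level difference turned sign in these settings. Within slide 1 by mouse means it was −2.4e-05 at Apc, −0.072 at Axin2, −0.040 at Lgr5 and 0.16 at Glul, and within slide 2 −0.011 at Apc. By lesions within slide 1 it was 0.075 at Axin1, −0.12 at Axin2, 0.099 at Tbx3 and 0.21 at Glul, and within slide 2 −0.0035 at Axin2. With the slide as a block it was −0.024 at Axin2 and 0.0024 at Glul. At Axin2 it was −0.0025 with normexp, −0.020 with medians and −0.0024 after correction for base composition. At Lgr5 it was −0.046 with the loess ratios, −0.017 within 250 kb and −0.067 with probes on both designs. Leaving out mice gave −0.025 to 0.041 at Axin2, −0.044 to 0.092 at Lgr5 and −0.079 to 0.0082 at Glul.

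The mean distance turned to 0.042 at Ctnnb1, 0.057 at Axin1, −0.031 at Axin2 and 0.0066 at Tbx3 after correction for base composition. With probes on both designs it was 0.053 at Ctnnb1, −0.19 at Axin2 and 0.050 at Glul, and with the loess ratios −0.12 at Axin2 and −0.044 at Lgr5. It was −0.0076 (normexp) and −0.011 (1 Mb) at Apc, −0.071 (probes well above background) at Axin2 and 0.0096 (250 kb) at Tbx3. By lesions it was 0.0058 at Ctnnb1 and −0.043 at Axin2 on slide 1 and −0.029 at Apc on slide 2. By mouse means it was −0.025 at Axin2 on slide 1 and −0.029 at Apc on slide 2. Leaving out mice gave −0.0052 to 0.0099 at Apc. Without 9 of the 14 mice, each in turn, Axin2 was no longer called, over a range of 0.035 to 0.058.

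The difference of distance turned with the loess ratios to 0.049 at Ctnnb1, −0.0089 at Apc, −0.025 at Lgr5 and −0.0076 at Glul. It was 0.044 at Ctnnb1 and 0.012 at Axin1 within 250 kb, −0.0053 (probes well above background) and −0.037 (medians) at Apc, 0.0014 (normexp) and 0.034 (correction for base composition) at Axin1, and −0.0073 (slide as a block) at Axin2. With probes on both designs it was −0.052 at Lgr5 and −0.083 at Glul. Within slide 1 it was −0.022 at Apc, −0.025 at Axin2 and −0.026 at Lgr5 by mouse means, and 6.3e-05 at Ctnnb1, 0.057 at Axin1, −0.080 at Axin2, −0.018 at Lgr5 and 0.011 at Tbx3 by lesions. Leaving out mice gave −0.0070 to 0.022 at Apc, −0.018 to 0.0056 at Axin1, −0.019 to 0.081 at Lgr5 and −0.0067 to 0.053 at Glul. Tbx3 was −0.041 without CD-HFD mouse 2064.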
